A study of Mus musculus with 8 samples.

Results

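Interferon-induced GTPases, IFIT and OAS proteins, Schlafens and their companion antiviral genes were compared between macrophages with high and low MHC class II from mouse pancreas tumours. The set was a list of 45 genes taken by symbol: 5 immunity-related GTPases (IRG), 8 guanylate-binding proteins (GBP), 3 IFIT genes, 7 OAS genes, 2 Mx genes, the pair Isg15 and Usp18, 7 other antiviral genes, 4 genes of the Ifi200 family and 7 Schlafen genes. Of the 45, 43 had a probe of that name on the array, among 37040 gene names in all, and Tgtp1 and Ifi203 had none. A filter on dim probes left 40 members among the 27999 genes tested. Gbp6, Slfn3 and Slfn4 did not pass it.

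Each of 8 samples was hybridised to 1 Agilent array, with 4 samples in each group. Both groups were macrophages sorted from implanted pancreas tumours of female mice, 8 to 10 weeks old, of a strain the labels spell FvBn, and the labels spell the sort MHCIIl High or Low. Genotype is given as not provided, no treatment other than tumour implantation is named, and gates other than MHC class II, the tumour line and any pooling of animals are not given in the sources used here. Each sample carries 1 of the numbers 20435, 20436, 20439 and 20442 in its label, once per group. Whether the samples of a group are separate animals is not stated. The p-values cover the spread among these samples only, and that spread may be technical.

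Interferons are secreted cytokines that switch on many genes through JAK kinases and STAT transcription factors. Type I interferon acts mainly through a complex that includes STAT2 and IRF9 and binds the interferon-stimulated response element (ISRE), while interferon gamma acts largely at the gamma-activated site (GAS) and through IRF1, which binds ISRE-like sequences. IFIT, OAS and Mx proteins are best known as targets of type I interferon, whereas IRG and GBP proteins, which attack the vacuoles of intracellular microbes, are strongly induced by interferon gamma in macrophages.

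The 2 elements can be read directly in the promoters of many members. RefSeq promoters of assembly GRCm38.p6, from 250 bases before to 50 after a start, were at hand for 33 of the 45 members (73.3%), short of the 80% wanted for a share to stand for the list, so the shares are descriptions of those 33. The runs printed here are bases before the start only, 5′ to 3′ on the strand of the gene. They show IRG, GBP, IFIT, OAS and other antiviral genes with a match, Ifi205 as the member called, and Cmpk2 and Ifi35, described at length, as promoters without an ISRE core. Runs with a core are therefore more frequent here than among the 33. Capitals mark each match to GAAA, any 2 bases and GAAA (ISRE core) or to TTCNNNGAA (GAS), on either strand, so that TTTC, any 2 bases and TTTC is an ISRE core on the opposite strand and overlapping matches merge into 1 run of capitals.
Igtp, chr11:58199456-58199555, plus strand: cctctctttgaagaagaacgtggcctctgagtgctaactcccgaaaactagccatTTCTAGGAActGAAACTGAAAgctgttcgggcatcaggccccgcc
Irgm2, chr11:58214877-58214976, plus strand: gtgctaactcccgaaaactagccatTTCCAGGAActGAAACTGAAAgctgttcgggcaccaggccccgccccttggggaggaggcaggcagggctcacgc
Tgtp1, chr11:48992247-48992346, minus strand: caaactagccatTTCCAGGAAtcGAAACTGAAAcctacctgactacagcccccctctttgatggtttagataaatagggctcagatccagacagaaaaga
Irgm1, chr11:48871421-48871520, minus strand: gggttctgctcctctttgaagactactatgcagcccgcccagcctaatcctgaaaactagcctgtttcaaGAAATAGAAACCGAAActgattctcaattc
Gbp2, chr3:142620563-142620662, plus strand: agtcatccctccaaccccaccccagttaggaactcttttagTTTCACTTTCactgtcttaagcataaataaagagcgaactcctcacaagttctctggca
Gbp3, chr3:142559944-142560043, plus strand: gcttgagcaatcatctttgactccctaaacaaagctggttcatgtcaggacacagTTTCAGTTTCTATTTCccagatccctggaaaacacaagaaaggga
Gbp7, chr3:142530230-142530329, plus strand: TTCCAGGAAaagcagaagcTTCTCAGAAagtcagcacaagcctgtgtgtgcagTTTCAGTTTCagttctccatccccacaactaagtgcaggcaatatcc
Ifit1, chr19:34640785-34640884, plus strand: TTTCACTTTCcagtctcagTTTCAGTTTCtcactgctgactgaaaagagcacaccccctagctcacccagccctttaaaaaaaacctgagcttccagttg
Ifit3, chr19:34583373-34583472, plus strand: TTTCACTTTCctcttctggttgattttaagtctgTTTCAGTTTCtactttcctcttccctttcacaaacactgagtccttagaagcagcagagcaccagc
Isg15, chr4:156200819-156200918, minus strand: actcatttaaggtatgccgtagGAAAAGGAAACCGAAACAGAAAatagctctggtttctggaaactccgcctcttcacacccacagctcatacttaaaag
Oas1a, chr5:120907526-120907625, minus strand: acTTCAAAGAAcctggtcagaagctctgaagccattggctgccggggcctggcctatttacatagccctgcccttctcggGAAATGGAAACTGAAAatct
Oas3, chr5:120777660-120777759, minus strand: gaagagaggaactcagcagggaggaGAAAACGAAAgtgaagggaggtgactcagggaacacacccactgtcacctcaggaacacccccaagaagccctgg
Rsad2, chr12:26456473-26456572, minus strand: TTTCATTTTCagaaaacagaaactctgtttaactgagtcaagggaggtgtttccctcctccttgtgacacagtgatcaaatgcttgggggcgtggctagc
Ifi205, chr1:174031790-174031889, minus strand: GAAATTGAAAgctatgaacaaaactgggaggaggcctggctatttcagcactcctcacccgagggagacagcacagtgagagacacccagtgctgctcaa
Cmpk2, chr12:26469115-26469214, plus strand: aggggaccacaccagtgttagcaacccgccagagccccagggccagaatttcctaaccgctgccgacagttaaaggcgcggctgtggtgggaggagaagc
Ifi35, chr11:101448312-101448411, plus strand: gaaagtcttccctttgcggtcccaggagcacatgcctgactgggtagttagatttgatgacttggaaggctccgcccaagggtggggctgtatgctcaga

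An ISRE core was found in 20 of the 33 promoters (60.6%), against 1079 of 27025 genes with a promoter in the table (3.99%). By family it was present in 4 of 4 IRG genes, 4 of 4 GBP genes, 2 of 3 IFIT genes, 3 of 5 OAS genes, Isg15, 1 of 6 other antiviral genes, 2 of 3 Ifi200 genes and 3 of 7 Schlafens. No Mx promoter was in the table. The longer form, with CT directly after the core, was found in 11 members (33.3%) and in 0.303% of all genes, and all 4 GBP genes held it. GAS matches were found in 10 members (30.3%) against 9.55% of all genes, and the form with 4 bases of any kind between TTC and GAA in 7 members (21.2%) against 8.01%. In Igtp, Irgm2 and Tgtp1 the GAS and the ISRE core stood next to each other, separated by 2 bases. This arrangement, searched for after the sequences had been seen, occurred in 5 of the 27025 genes, the other two being Tgtp2 and Gm12185. Cmpk2 held neither letter pattern in its window, and Ifi35 held no ISRE core and a GAS match outside the run printed. These are matches of letters, not measurements of binding.

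The expression values are log2 signals relative to the 75th percentile of all probes on the same array, so that 0 is a probe at that percentile and 1 unit is a factor of 2. Where 4 levels are listed for a group, they are those of 20435, 20436, 20439 and 20442 in this order. Differences are MHCII-high minus MHCII-low. A gene was called when its limma p-value, after Benjamini-Hochberg adjustment over the 27999 genes, was under 0.05. Since these are bulk samples, fewer cells of a type and less RNA per cell cannot be told apart.

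The family medians lay on both sides of 0. Ifi205, a DNA-binding protein of the Ifi200 family, was the only member called, higher in MHCII-high (1 of 40, 2.5%; over all genes 2.69% were called higher and 2.25% lower, 4.94% in all). No member was called lower. GBP genes had the highest family median, 0.52, and the 7 other antiviral genes had the lowest, -0.48, while IRG, OAS and Schlafen medians were within 0.12 of 0. The median over all 40 members was 0.04 and that over all genes was 0.0024. At an unadjusted p under 0.05, 5 members lay on the higher side and 6 on the lower, 27.5% of the 40 against 19.7% of all genes. These counts rest partly on the pair of arrays numbered 20442, as they were 9 and 3 without MHCII-low 20442 and 5 and 3 without MHCII-high 20442. The groups did not overlap for 8 of the 40 members (20%), against 14.5% of all genes. MHCII-high lay above in 5 of them (12.5% of the 40, against 7.5% of all genes). It lay below in 3 (7.5% of the 40, against 6.96% of all genes).

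The intervals of the members were about as narrow as those of all genes. For 26 of the 40 members (65%) the whole 95% interval of the difference lay within 2-fold in either direction, against 62.3% of all genes. This held for 4 of 4 IRG genes, both genes of the ISG15 pair and 5 of 5 Schlafens, but for 2 of 7 other antiviral genes and 1 of 3 IFIT genes.

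**Figure D1:**
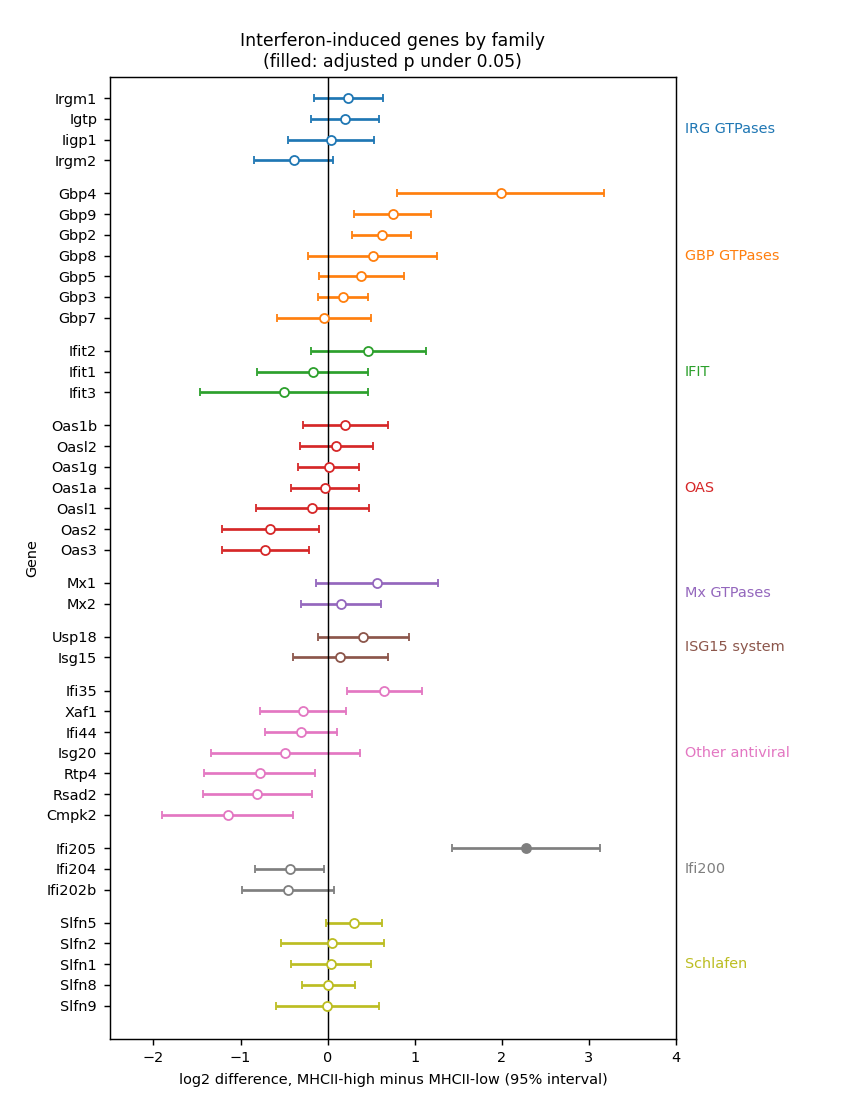
Log2 difference, MHCII-high minus MHCII-low, for the 40 members tested, grouped and coloured by family; points are limma estimates from 4 arrays per group and bars their 95% intervals. Ifi205, at 2.28, is the only filled point (adjusted p under 0.05), the GBP genes lie mostly right of 0, and Cmpk2, Rsad2 and Rtp4 lie left of it.

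Slide position was not balanced between the groups. All 8 arrays were on 1 slide. Its row 1 had 3 arrays of MHCII-low with 1 of MHCII-high, and its row 2 the reverse, 1 of MHCII-low with 3 of MHCII-high. With the row as a block in the fit, 455 genes were called in place of 1384, and no member was. Differences within each row are therefore given beside Cmpk2 and the members whose groups did not overlap. For the other members with levels listed, rows 1 and 2 gave -0.54 and -0.61 (Irgm2), -0.26 and -1.51 (Ifit3) and 0.89 and 0.49 (Mx1). The rows gave 0.49 and -0.10 for Usp18 and 0.32 and 0.15 for Slfn5. Such differences rest on 1 array against 3 and carry no test of their own.

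The IRG proteins are GTPases that load onto pathogen vacuoles or, in the case of the Irgm regulators, guard the cell's own membranes. None of the 4 tested was called, and their median difference was 0.12, or 0.04 with the row as a block. Irgm2, a regulator, had the largest difference of the family. Its levels were 0.50, -0.02, 0.26 and 0.19 in MHCII-high 20435, 20436, 20439 and 20442, and 0.43, 0.27, 0.85 and 0.93 in MHCII-low in the same order. The 2 ranges overlapped, and the difference was -0.39 (95% interval -0.84 to 0.07, adjusted p = 0.33). Irgm1, which also takes part in autophagy, gave 0.24 (95% interval -0.16 to 0.63), and Igtp, also called Irgm3, gave 0.20 (95% interval -0.19 to 0.59). Iigp1, an effector that coats vacuoles, gave 0.04 on its brighter probe and -0.55 on its other probe. With all probes of a gene averaged, the family median was -0.03, so no direction is given for it.

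GBP proteins are larger GTPases that assemble on vacuoles and bacteria and help to open them to inflammasome sensing. Of 8 genes, 7 were tested, 6 had a difference above 0, and 3 (Gbp2, Gbp4 and Gbp9) had 4 MHCII-high arrays all above the 4 MHCII-low arrays. Over all genes, 50.3% had a difference above 0 and 7.5% had MHCII-high wholly above MHCII-low. None of the 7 passed the adjusted threshold. The median of the 7 was 0.52, and 0.46 with the row as a block.

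Gbp4 had the largest difference of the family (probe at chr5:105544852-105544911 on mm9, minus strand). It stood at -2.26, -2.49, -3.44 and -2.67 in MHCII-high 20435, 20436, 20439 and 20442, and at -5.89, -5.37, -3.87 and -3.68 in the MHCII-low arrays of the same numbers. The gap was wide in 20435 and 20436 and narrow in 20439, where the arrays differed by 0.44. The difference was 1.99 (95% interval 0.80 to 3.18, adjusted p = 0.07), with 2.55 in row 1 and 0.89 in row 2. Only 2 of the 4 MHCII-low arrays had the probe well above background, and with another background correction, normexp, the difference was 0.84 and was called (adjusted p = 0.041, range over all alternatives 0.041 to 0.22).

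Gbp2, which acts against vacuolar bacteria and parasites (probe at chr3:142300719-142300778, plus strand), had tight groups. MHCII-high levels were 0.10, -0.08, 0.01 and -0.13, and MHCII-low levels were -0.92, -0.68, -0.52 and -0.46. Every MHCII-high array lay above every MHCII-low array, with group means of -0.02 ± 0.10 and -0.64 ± 0.20 (SD, n = 4 each). The difference of 0.62 (95% interval 0.28 to 0.96) had an adjusted p of 0.054 and was 0.62 in row 1 and 0.46 in row 2. It was called under 5 of 17 alternative settings, where its adjusted p ranged from 0.028 to 0.19.

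Gbp9 (probe at chr5:105523238-105523479, minus strand) had MHCII-high levels of 1.30, 0.80, 0.84 and 0.62 against -0.15, 0.13, 0.39 and 0.19 in MHCII-low. The groups did not overlap, and MHCII-high 20435 stood above the other three of its group. The difference was 0.75 (95% interval 0.31 to 1.19, adjusted p = 0.066), with 0.68 in row 1 and 0.73 in row 2. It was called under 2 of 17 alternatives, with adjusted p-values from 0.034 to 0.20.

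The remaining GBP genes had overlapping groups. Gbp5, which promotes inflammasome assembly, gave 0.39 (95% interval -0.10 to 0.87). Gbp8 gave 0.52 (95% interval -0.22 to 1.26), Gbp3 0.18 (95% interval -0.11 to 0.47) and Gbp7 -0.04 (95% interval -0.58 to 0.50). Gbp6 was well above background on 3 MHCII-high arrays and on no MHCII-low array, with mean levels of -5.28 and -7.14. MHCII-high 20439, at -7.83, lay below every MHCII-low array (-7.63 to -5.96), so the groups overlapped. The MHCII-high mean includes this dim signal, and no lower bound of a fold is given. In the limma fit without the filter on dim probes, Gbp6 gave 1.86 (adjusted p = 0.35).

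**Figure D2:**
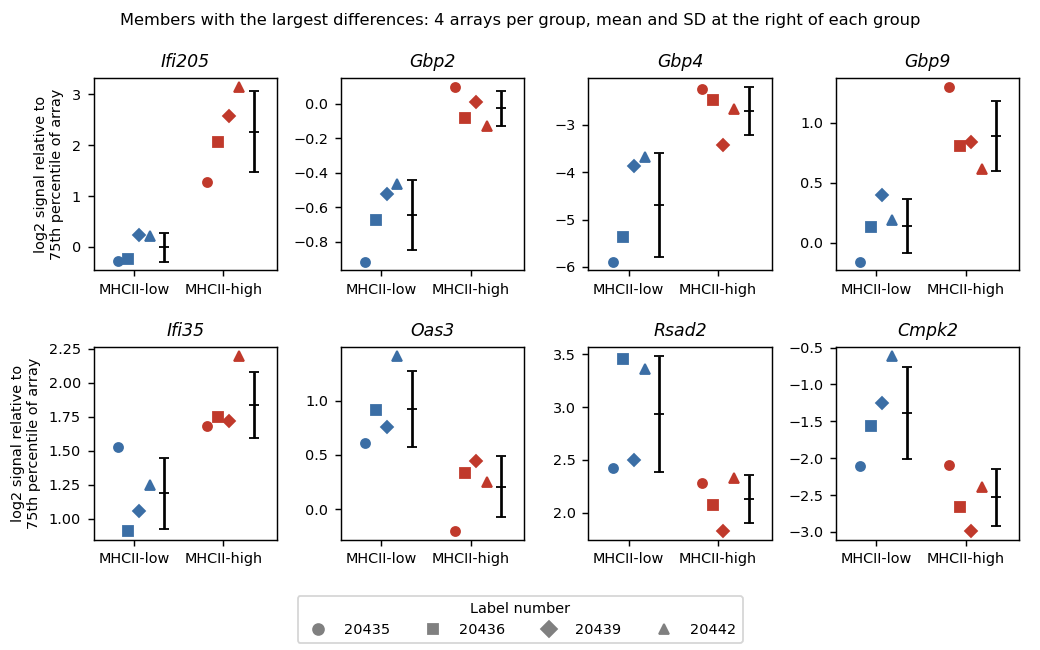
Log2 signal relative to the 75th percentile of the array for 8 members, 1 point per array (blue MHCII-low, red MHCII-high, shape by label number), with mean ± SD (n = 4) beside each group; each panel has its own axis. Ifi205, Gbp2, Gbp4, Gbp9 and Ifi35 have all MHCII-high arrays above all MHCII-low arrays, Oas3 and Rsad2 the reverse, and in Cmpk2 1 MHCII-high array lies just above the lowest MHCII-low array. Rtp4 (-0.78) and Oas2 (-0.66), with differences larger in size than those of Ifi35 (0.65) and Gbp2 (0.62), are not shown.

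IFIT proteins bind foreign RNA ends and block its translation. None of the 3 was called, and their differences had both signs. Ifit3, which stabilises the complex with Ifit1, spread most. Its MHCII-high levels were -0.17, -0.27, -0.38 and 0.13, close together, while its MHCII-low levels were -0.83, 0.06, 0.73 and 1.36 in 20435, 20436, 20439 and 20442. The difference of -0.50 (95% interval -1.47 to 0.46, adjusted p = 0.56) was smaller than the range within MHCII-low. Ifit1 gave -0.17 (95% interval -0.81 to 0.46) and Ifit2 0.47 (95% interval -0.20 to 1.13).

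OAS enzymes sense double-stranded RNA and make the second messenger that activates RNase L, and Oas1b and Oasl1 belong to the family by sequence. None of the 7 was called, 3 were above 0 and 4 below, and the median was -0.03. Oas3, which prefers long double-stranded RNA (probe at chr5:121203598-121203657, minus strand), had the largest difference. MHCII-high levels were -0.20, 0.33, 0.44 and 0.25, and MHCII-low levels were 0.61, 0.91, 0.76 and 1.41. Each MHCII-low array was above each MHCII-high array, and the difference was -0.71 (95% interval -1.22 to -0.21, adjusted p = 0.11), with -0.43 in row 1 and -1.25 in row 2. Under normexp it was called (adjusted p = 0.034, range over all alternatives 0.034 to 0.20).

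Oas2 gave -0.66 (95% interval -1.22 to -0.10, adjusted p = 0.18) and -1.26 on a second, dimmer probe. The other five OAS genes lay near 0, at -0.03 for Oas1a, 0.01 for Oas1g, 0.10 for Oasl2, -0.18 for Oasl1 and 0.20 for Oas1b. Oasl1 gave 0.13 on its other probe. Oas1b gave 0.38 and 0.92 on dimmer probes, the last well above background on 7 of 8 arrays. Its brightest probe was high on MHCII-high 20442, at 6.07, and between 5.09 and 5.34 on the other seven arrays.

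Mx1 and Mx2 are dynamin-like GTPases that trap viral nucleocapsids. Neither was called. Mx1 levels were -3.48, -2.82, -3.21 and -3.09 in MHCII-high and -3.74, -4.44, -2.93 and -3.75 in MHCII-low, and the groups overlapped through MHCII-low 20439. The difference was 0.56 (95% interval -0.14 to 1.26, adjusted p = 0.36) for Mx1 and 0.15 (95% interval -0.30 to 0.61) for Mx2.

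Isg15 is a ubiquitin-like protein attached to other proteins after interferon exposure, and Usp18 removes it and dampens signalling at the type I receptor. Usp18 levels were 1.34, 1.12, 1.05 and 1.40 in MHCII-high and 0.57, 0.36, 0.97 and 1.37 in MHCII-low. The MHCII-low array 20442, at 1.37, lay inside the MHCII-high range and the other three below it. The difference was 0.41 (95% interval -0.12 to 0.94, adjusted p = 0.37) for Usp18 and 0.15 (95% interval -0.40 to 0.69) for Isg15.

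Of the 7 other antiviral genes none was called, 6 had a difference below 0, and the exception was Ifi35 (50.3% of all genes were above 0). Their median was -0.48, with -0.71 when the row was a block, -0.32 in row 1 alone and -1.21 in row 2 alone. Cmpk2, a mitochondrial nucleotide kinase encoded beside Rsad2, had the largest difference. Its MHCII-high levels were -2.09, -2.66, -2.98 and -2.39, and its MHCII-low levels were -2.11, -1.56, -1.26 and -0.61. The groups met only in 20435, where both arrays were near -2.1. The difference was -1.15 (95% interval -1.90 to -0.40, adjusted p = 0.091), with -1.02 in row 1 and -1.87 in row 2, and it was not called under any of 17 alternatives (adjusted p from 0.060 to 0.21).

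Rsad2, or viperin, makes a chain-terminating nucleotide (probe at chr12:27127859-27127918, minus strand). It stood at 2.28, 2.07, 1.83 and 2.33 in MHCII-high and at 2.43, 3.46, 2.50 and 3.36 in MHCII-low. All MHCII-low arrays were above all MHCII-high arrays, though 20435 and 20439 of MHCII-low lay only just above. The difference was -0.81 (95% interval -1.44 to -0.18, adjusted p = 0.15), with -0.72 in row 1 and -1.21 in row 2.

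Ifi35, an interferon-induced leucine zipper protein, lay on the other side of 0 (probe at chr11:101319678-101319737, plus strand). MHCII-high levels were 1.68, 1.75, 1.72 and 2.20, and MHCII-low levels were 1.52, 0.91, 1.06 and 1.25. The ranges did not overlap, and the difference was 0.65 (95% interval 0.22 to 1.08, adjusted p = 0.094), with 0.58 in row 1 and 0.62 in row 2. It was called under normexp (adjusted p = 0.043, range over all alternatives 0.043 to 0.26).

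Rtp4, a receptor transporter protein, gave -0.78 (95% interval -1.42 to -0.14, adjusted p = 0.17). The exonuclease Isg20 gave -0.48 (95% interval -1.34 to 0.37). Ifi44 gave -0.30 and 0.22 on its dimmer probe. Xaf1, an antagonist of inhibitors of apoptosis, gave -0.28 on its brightest probe and 0.79 on another probe, which the files assign to another transcript, so its direction depends on the probe.

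The Ifi200 proteins bind DNA through HIN domains and many carry a pyrin domain. Ifi205 (probe at chr1:175956747-175956806 on mm9, minus strand) stood at 1.27, 2.07, 2.58 and 3.15 in MHCII-high 20435, 20436, 20439 and 20442. In MHCII-low it stood at -0.27, -0.23, 0.24 and 0.22. The lowest MHCII-high array was about 1 unit above the highest MHCII-low array, and MHCII-high spread more (SD 0.80 against 0.28, n = 4 each). The difference was 2.28 (95% interval 1.42 to 3.13), a 4.85-fold higher signal in MHCII-high, with an adjusted p of 0.014. A second probe of the same transcript gave 1.36.

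The call for Ifi205 was kept in each of the 8 fits that left out 1 array. With slide row as a block the difference was 2.13 and its adjusted p of 0.070 no longer passed (range over all alternatives 0.0025 to 0.070), while the difference within rows was 2.16 in row 1 and 2.11 in row 2. Its relative Ifi204 had levels of 1.71, 1.69, 1.55 and 1.46 in MHCII-high and 2.0, 1.80, 1.92 and 2.44 in MHCII-low. These did not overlap either, in the opposite direction, with a difference of -0.44 (95% interval -0.83 to -0.04, adjusted p = 0.21) and -0.21 in row 1 and -0.87 in row 2. Ifi202b, which lacks a pyrin domain, gave -0.46 (95% interval -0.98 to 0.07). Ifi204 and Ifi205 are close paralogs, as are several OAS, GBP and Schlafen genes, and whether a probe also takes up signal from a paralog was not tested.

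Schlafens are regulators of lymphoid and myeloid growth, and some cut transfer RNA. None of the 5 tested was called, and the median was 0.04. Slfn5 had the largest difference, with levels of 0.11, -0.07, -0.23 and 0.04 in MHCII-high and -0.44, -0.38, -0.38 and -0.17 in MHCII-low. The groups overlapped slightly at MHCII-high 20439 and MHCII-low 20442, and the difference was 0.30 (95% interval -0.01 to 0.62, adjusted p = 0.28). Its other 4 probes gave 0.28, 0.09, -0.02 and -0.03, so its direction depends on the probe. Slfn2, which keeps T cells and monocytes quiescent, gave 0.05 (95% interval -0.54 to 0.65), Slfn1 0.04 (95% interval -0.42 to 0.50), Slfn8 0.01 (95% interval -0.29 to 0.31) and Slfn9 0.00 (95% interval -0.59 to 0.59). Slfn3 was well above background on 1 MHCII-high and 2 MHCII-low arrays, and Slfn4 on none.

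Of the 11 IRG and GBP genes tested, 9 were above 0, against 50.3% of all genes. Their median was 0.24 (0.17 with the row as a block, 0.26 in row 1 alone and 0.15 in row 2 alone). Of the 21 IFIT, OAS, Mx, ISG15-pair and other antiviral genes, 9 were above 0 and 12 below, with a median of -0.17 (-0.10 with the row as a block, 0.13 in row 1 alone and -0.41 in row 2 alone). In the IRG and GBP genes, 3 members had an unadjusted p under 0.05 on the higher side and 0 on the lower. In the 21 antiviral genes, 1 lay on the higher side and 5 on the lower, while over all genes 10.6% lay higher and 9.09% lower. Without MHCII-low 20442 the 21 genes had 3 on each side (Ifi35, Ifit2 and Usp18 higher, and Cmpk2, Oas3 and Rsad2 lower), and without MHCII-high 20442 they had 1 higher and 3 lower, so the count of 5 depends on these arrays. The medians are descriptions, and no test of the gap between the families was made.

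MHCII-low 20442 stood high in most families. It was the highest of the 4 MHCII-low arrays for 16 of the 21 antiviral genes (76.2%), including 7 of 7 OAS and 3 of 3 IFIT genes. It was also the highest for 7 of the 11 IRG and GBP genes (63.6%), 3 of 5 Schlafens and 1 of 3 Ifi200 genes, for neither Mx gene, and for 27 of all 40 members (67.5%), against 26.8% of all genes. Without it, the median of the 21 genes went from -0.17 to 0.07, that of IFIT from -0.17 to 0.07 and that of OAS from -0.03 to 0.09, while that of the other antiviral genes was -0.41 and that of the GBP genes 0.68. This array was also the only MHCII-low array in slide row 2, so its sample and its row cannot be told apart. In the MHCII-high group, 20442 was the highest array for 3 of 3 IFIT genes, 2 of 7 OAS genes and 15 of all 40 members (37.5%), against 39.4% of all genes.

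**Figure D3:**
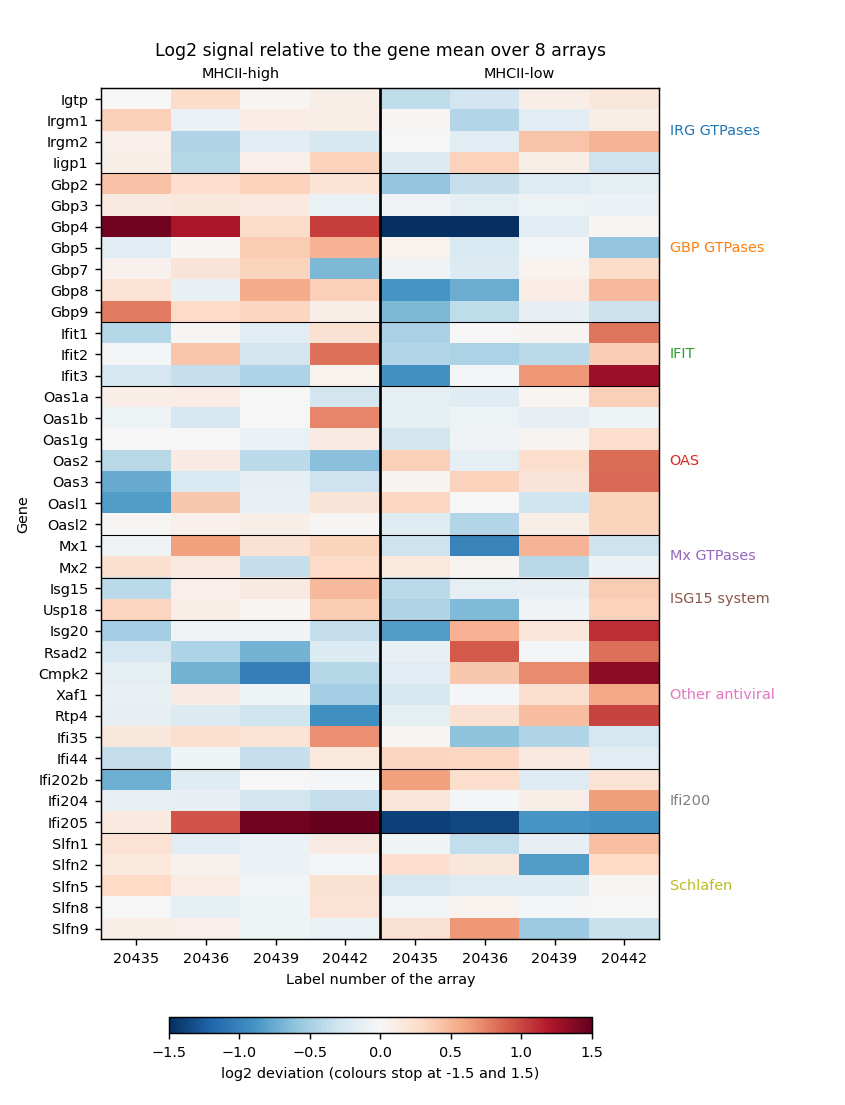
Log2 signal of each of the 40 members on each array as a deviation from the gene's mean over 8 arrays, with genes in rows by family and arrays in columns by group and label number; colours stop at -1.5 and 1.5. Red cells gather in the MHCII-low 20442 column over the IFIT and OAS genes and from Isg15 to Rtp4, while Ifi205 and Gbp4 split by group.

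The arrays that shared a label number were also compared. For the IRG and GBP genes together, the mean of MHCII-high minus MHCII-low was 0.76 in 20435, 0.51 in 20436, 0.21 in 20439 and 0.15 in 20442. It was above 0 in all 4 numbers. For the 21 antiviral genes it was 0.01, 0.06, -0.26 and -0.44 in the same order, near 0 in the first pair of numbers and below 0 in the others. The GBP genes alone gave 1.04, 0.82, 0.40 and 0.26. The IRG genes alone gave 0.27, -0.04, -0.10 and -0.04, below 0 in all numbers but 20435. The joint mean above 0 is thus not a trait of both families. The other antiviral genes gave -0.03, -0.41, -0.50 and -0.86.

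**Figure D4:**
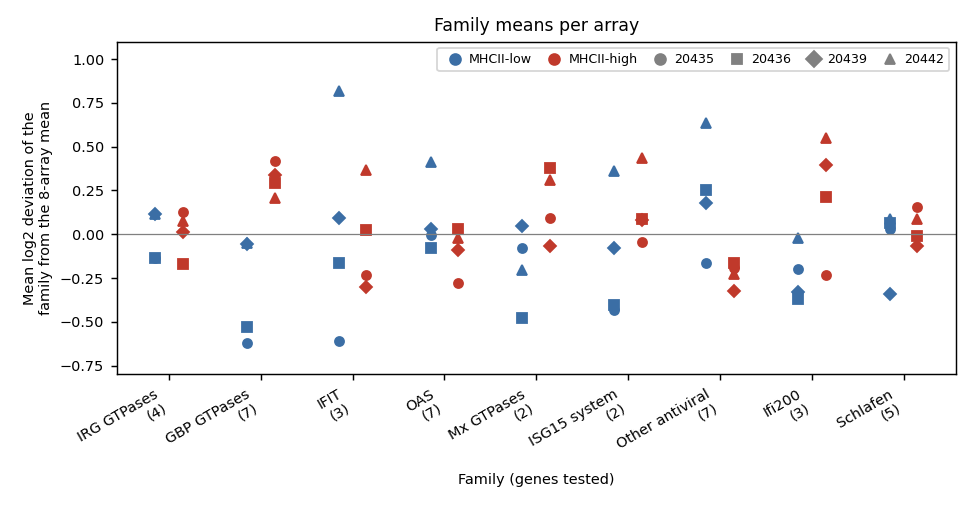
Mean log2 deviation of each family from its mean over 8 arrays, 1 point per array (blue MHCII-low, red MHCII-high, shape by label number), with the number of genes tested under each family. GBP genes have all 4 MHCII-high arrays above the MHCII-low arrays, the other antiviral genes have 3 of 4 MHCII-low arrays above the MHCII-high arrays, and MHCII-low 20442 is the highest point for IFIT, OAS and other antiviral genes.

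Spread between arrays of a group also varied by family. The median residual SD was 0.31 over the members and 0.32 over all genes, from 0.25 in IRG genes and 0.27 in Schlafens to 0.42 in the other antiviral genes and 0.45 in IFIT genes. Within MHCII-low the median SD of the 21 antiviral genes was 0.35 and within MHCII-high it was 0.28, where all genes had 0.29 and 0.30. The SD was larger in MHCII-low for 15 of the 21 (71.4%), against 50.5% of all genes. MHCII-low 20442 was the highest of its group for 16 of these 21 genes, and its part in the spread was not tested.

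Other genes of the interferon pathway, from ligand to target, were read from the same fit. Of 105 listed, 95 were tested and 10 were called (10.5%, against 4.94% of all genes), 7 higher and 3 lower. The lists were chosen with earlier results of these data known, so the larger share is a description only. No interferon ligand (0 of 13), receptor (0 of 6) or signalling inhibitor (0 of 6) was called. At an unadjusted limma p under 0.05, 2 ligands and 1 inhibitor lay higher, and 1 ligand and 1 receptor lower. Ifna9, well above background on all 8 arrays, gave 1.43 (adjusted p = 0.052). Ifng, at -1.59 (adjusted p = 0.30), was well above background on 2 MHCII-high and 3 MHCII-low arrays, and Ifnk, at 1.16 (adjusted p = 0.41), on 3 and 1, so their differences rest in part on signals at background. Among receptors Il10rb gave -0.56 (adjusted p = 0.11), Ifngr1 0.29 and Ifnar2 -0.19. Among inhibitors Socs1, which blocks JAK kinases, gave 0.92 (adjusted p = 0.060), Irf2bp1 0.25 and Socs3 0.22. Although not called in the main fit, Ifna9, Il10rb and Socs1 were called under normexp, and Ifna9 and Socs1 under further alternatives.

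Among 13 JAK, STAT and IRF genes 3 were called, all higher. Jak2, the kinase bound to the interferon gamma receptor, had means of 0.55 ± 0.21 in MHCII-high and -1.32 ± 0.16 in MHCII-low (SD, n = 4), a difference of 1.87 (adjusted p = 0.0012). Irf5 differed by 1.01 (adjusted p = 0.045) and Stat2 by 0.71 (adjusted p = 0.041). Among 11 nucleic acid sensors Tlr7 was called lower in MHCII-high, with a difference of -1.78 (adjusted p = 0.0035) and means of -1.89 ± 0.32 and -0.11 ± 0.19, while Tlr3 gave 1.07 (adjusted p = 0.062) and Tlr9 0.73 (adjusted p = 0.070).

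Other targets gave calls in both directions. Of 25 other type I targets, Ifitm1, a membrane protein that restricts viral entry, was higher by 1.74 (adjusted p = 0.0043) and Stat2 was the other one called, and Ddx60 gave -0.60 (adjusted p = 0.080). Of 25 other interferon gamma targets, Ciita, the master regulator of MHC class II genes, was higher by 3.03 (adjusted p = 0.00088), the chemokine Cxcl9 by 2.68 (adjusted p = 0.0046) and the immunoproteasome subunit Psmb9 by 0.81 (adjusted p = 0.024). The groups were sorted on MHC class II, which Ciita drives, so its difference is not independent of the sort. Called lower were Gm4951, an IRG-like gene, at -1.58 (adjusted p = 0.015) and Nos2, the inducible nitric oxide synthase, at -1.14 (adjusted p = 0.032). With slide row as a block, Jak2, Tlr7, Ifitm1, Ciita and Cxcl9 were still called, and Irf5, Stat2, Psmb9, Gm4951 and Nos2 were not (adjusted p from 0.073 to 0.15). MHCII-low 20442 was also the highest of its group for 14 of the 25 other type I targets and 15 of the 25 other gamma targets.

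Some cell type markers also differed between the groups. Their lists were chosen with earlier results of these data known, so the counts are descriptions only. Over all genes 2.69% were called higher and 2.25% lower. All 12 macrophage markers with a probe were well above background on every array, with a summed linear signal, in units of the array's 75th percentile, of 243 to 330 in MHCII-high and 313 to 415 in MHCII-low. Among them Adgre1, which encodes F4/80, was called lower, at -1.69. Of 12 conventional dendritic cell markers 11 were called higher (median 3.23), with a summed signal of 24.0 to 44.9 in MHCII-high and 3.72 to 6.90 in MHCII-low, and Xcr1, the exception, was well above background on 3 MHCII-high arrays and 1 MHCII-low array. Monocyte markers summed to 58.9 to 72.6 against 80.7 to 99.3, with Plac8 called higher and F13a1 called lower. Plasmacytoid dendritic cell markers summed to 29.5 to 35.2 against 29.0 to 31.3, with 2 of 9 called higher and 1 lower. In the T and NK cell list 0 of 11 were called by limma (1 higher and 1 lower at an unadjusted p under 0.05), with sums of 16.8 to 23.2 against 16.6 to 31.5. In the B cell list 2 of 7 were called higher, with sums of 40.9 to 45.4 against 31.8 to 49.8. Neutrophil markers, none of them called, summed to 26.2 to 34.9 against 27.2 to 32.9. Epithelial markers, with Cdh1 called higher, summed to 2.81 to 15.2 against 4.19 to 9.61, and fibroblast markers, none called, to 7.99 to 58.0 against 25.7 to 67.9. Such sums weigh the brightest genes of a list most, and for monocyte markers the sum and the median differed in direction. Median differences were -0.36 for macrophage, 0.19 for monocyte, 0.39 for plasmacytoid and -0.19 for T and NK cell markers. They were 0.72 for B cell, -0.27 for neutrophil, 0.35 for epithelial and -0.89 for fibroblast markers. Endothelial markers (5 tested, none called) summed to 1.04 to 1.66 against 1.38 to 1.91, with a median difference of -0.57. No list of another cell type was wholly below background, though Gzmb and the endothelial marker Tek were well above it on no array. With slide row as a block, 9 of the 12 conventional dendritic cell markers were called (Zbtb46, adjusted p = 0.071, and Clec9a, adjusted p = 0.067, were not), as were Adgre1, Plac8, F13a1 and the plasmacytoid marker called lower. The plasmacytoid markers called higher, the B cell markers and Cdh1 were not. The part of these cell types in the differences of the members was not tested.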

How the data were processed

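Per the labels' protocols, RNA of sorted cells was amplified (Sigma WTA2) and labelled with Cy5. Per the file headers, the deposited scanner files hold 1-colour spot intensity from Agilent Feature Extraction 11.5.1.1 (also in the submitters' processing notes), after background subtraction and spatial detrending, and give probe positions on mm9. The deposited series table holds log2 values whose making is not given in the sources used here; they correlated at 0.999998 or higher with quantile-normalized signals and served as an alternative.

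Of 62976 spots per array, 3671 controls and flagged outliers were left out. Log2 processed signal minus the array's 75th percentile was used. A gene was its brightest probe among those well above background on at least 4 of 8 arrays. Per array, 38755 to 42086 of 56605 probes (68.5% to 74.4%) were well above background. The number of arrays limits precision. The probe accessions of 37 members matched RefSeq, all with the same symbol.

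limma 3.58.1 (lmFit, eBayes; R 4.3.3) compared the groups, two-sided and without covariates, with Benjamini-Hochberg adjustment and a threshold of 0.05, and was tested on simulated data. Families are described by counts and medians. Every member is named; values per array are given for called members, those whose groups do not overlap and the largest difference in each family. Of each pathway list, called genes and the 3 largest differences are named. The members and lists were chosen with earlier results of these data known. Alternatives changed the background correction, normalization, values, filter, probe rule, outlier flags, block and arrays. A planned search for P-loop and CaaX motifs in proteins was not run.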

Additional observations from a re-analysis of the deposited data

Results flagged for a closer look

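Of 80 sets of 4 arrays (40 members in each group), 4 held an array far from the other three by Dixon's criterion, the number chance gives at about 1 in 20. For Ifit2, MHCII-low 20442 was the highest at -3.44, with the next array at -4.20. For Gbp3, MHCII-high 20442 was the lowest at -1.51, with the next at -1.28. For Ifi35, MHCII-high 20442 was the highest at 2.20, with the next at 1.75. For Slfn2, MHCII-low 20439 was the lowest at 2.58, with the next at 3.59. Label number 20442 is in 3 of the 4.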

How the results depend on the processing

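No called member changed sign under any alternative. Of the 40 members, 1 was called higher, and this became 5 with normexp background correction (Gbp2, Gbp4, Gbp9 and Ifi35 added), 2 with quantile normalization, with the deposited series table or with all probes of a gene averaged (Gbp2 added), 3 with probes well above background on all 8 arrays (Gbp2 and Gbp9 added) and 0 with slide row as a block. The number called lower was 0 and became 1, Oas3, with normexp. Of the other pathway genes 7 were called higher, which became 13 with normexp, 11 with quantile normalization or the deposited table, 12 with the filter on all 8 arrays and 4 with the row block; 3 were called lower, which became 5 with normexp and 1 with the row block. Over all genes 1384 were called, and 455 with the row block. Leaving out 1 array at a time, with probes and filter kept from all 8, gave 557 to 1170 genes, 4 to 6 pathway genes higher and 1 to 3 lower.

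Medians of GBP (0.38 to 0.68), Mx (0.19 to 0.46) and ISG15-pair genes (0.09 to 0.44) stayed above 0 under all 17 alternatives. Those of other antiviral (-0.84 to -0.39) and Ifi200 genes (-0.48 to -0.18) stayed below 0, although Ifi205 itself was called higher. Within slide row 2 alone, the ISG15-pair median was -0.20. That of IRG changed sign with all probes averaged (-0.03), that of OAS under quantile normalization (0.00), the deposited table and without MHCII-high 20435 or MHCII-low 20442, that of IFIT without MHCII-low 20442, and that of Schlafens with the row block (-0.04). At an unadjusted p under 0.05, 5 members lay higher and 6 lower; this became 6 and 3 with the replicate block, 6 and 4 with all probes averaged and 5 and 8 with quantile normalization or the deposited table. Of the 21 antiviral genes 1 lay higher and 5 lower, which became 2 and 3 with the replicate block or with all probes averaged. Uncalled members changed sign in 0 to 8 of 40 cases per alternative.

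Arrays of the same label number deviated together weakly (correlations of 0.19, 0.13, 0.21 and 0.08 across genes), 1 of them under 0.1, so the numbers were not taken to pair the samples, although each MHCII-high array correlated best with its own number. With the label number as a replicate block, 813 genes and 4 pathway genes higher were called, and Ifi205 was still called (adjusted p = 0.021, against 0.0025 to 0.070 over all its alternatives). With 4 arrays per group, a difference that misses the threshold does not show that a gene was equal, and Gbp6 and Slfn3 were well above background on only 3 arrays each and Slfn4 on none.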
